A study of Mus musculus with 16 samples.

Results

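Neurotrophins and insulin-like growth factor 1 are secreted growth factors that have been tied to environmental enrichment. The genes described here are the ligands Bdnf, Ntf3 and Igf1 and the receptors Ntrk2, Ntrk3, Ngfr and Igf1r. They were taken by gene symbol from each table, and all 7 were listed in all 16 libraries, 7 of 16250 symbols in the series. As background, brain-derived neurotrophic factor (Bdnf) signals through the receptor tyrosine kinase TrkB (Ntrk2), and neurotrophin-3 (Ntf3) signals mainly through TrkC (Ntrk3). The receptor encoded by Ngfr binds all neurotrophins and their uncleaved precursors, while Igf1 acts through the tyrosine kinase Igf1r. These pathways share a cascade of adaptors and kinases and act in the survival, growth and connection of neurons in cortex and hippocampus.

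RNA came from wild-type (WT) mouse fetuses at embryonic day 18.5. The exposure was an enriched environment (EE), called prenatal in the series title; such housing commonly offers more room, toys or cage mates. It was set against standard habitation (SH). Hippocampus had 3 EE and 3 SH libraries, and cortex had 5 EE and 5 SH libraries. All libraries share the WT genotype, the age and the RNA protocol, and the characteristics give the tissue only as brain, so that cortex and hippocampus come from the titles. No label ties a library to a fetus or a litter, so p-values measure only the spread between libraries, some of which may share a mother. Levels are the authors' FPKM, fragments scaled by transcript length and library total.

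The libraries fall into 3 blocks by the genes their tables list: hippocampus with 15247, cortex replicates 1 to 3 with 15996 and cortex replicates 4 and 5 with 13448. Reads recovered from the steps of the FPKM values numbered 16338329 to 21263316 per library in hippocampus, 15388361 to 20795481 in cortex replicates 1 to 3 and 11267291 to 11986846 in cortex replicates 4 and 5. One library stood apart: summed FPKM was 511438 in cortex SH replicate 3 and 339726 to 396658 in the other 15. In that library the deviation of genes from their block mean fell with transcript length (Spearman's rho of -0.76 across 12384 genes, which are not independent replicates), while rho in the rest ran between -0.48 and 0.64. Member differences that moved most with this library are given with and without it below. Tissue labels were checked with genes of known regional use. Prox1, a dentate granule cell factor, had 5.67 to 21.5 FPKM in hippocampus and 1.57 to 3.16 FPKM in cortex, and Zbtb20, a hippocampal factor, had 5.59 to 14.4 FPKM in hippocampus and 0.632 to 3.44 FPKM in cortex.

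On GRCm38, the assembly also called mm10, with the GENCODE M21 annotation, all 7 are protein-coding genes. Bdnf lies at chr2:109674700-109727007 on the plus strand with 11 annotated transcripts, and Ntf3 at chr6:126101412-126166910 on the minus strand with 3. Ntrk2 lies at chr13:58806569-59133970 on the plus strand with 10 transcripts, and Ntrk3 at chr7:78175959-78738012 on the minus strand with 20. Ngfr lies at chr11:95568818-95587735 on the minus strand with 1 transcript. Igf1 lies at chr10:87858265-87937042 on the plus strand with 8 transcripts, and Igf1r at chr7:67952827-68233668 on the plus strand with 6. Ntrk2 and Ntrk3 each make full-length receptors and truncated forms without the kinase, which 1 FPKM per gene cannot separate. Antisense genes overlap Bdnf, Ntrk2, Ntrk3 and Igf1 and are not listed in the tables, and since no source used here says whether counting used strand, their reads cannot be told apart from those of the members. Genes on the same strand also overlap Ntrk2 (C630044B11Rik) and Ntrk3 (Gm44607 and Gm39038) and are not listed. Counting by strand would not separate their reads.

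A pair of promoter windows is shown, one for the ligand most often tied to enrichment and one for a receptor whose level differed between the tissues. Each holds 250 bases before and 50 after a RefSeq transcript start (GRCm38.p6), printed 5′ to 3′ on the plus strand, and 6 of 7 members have at least 1 such window. Bdnf has 7 windows, and the window at chr2:109692186-109692485 is the single one that holds TCACGTCA (capitals), the letters of a known calcium-responsive element of this gene. Both strands were searched, and these letters occur in 0.441% of 32851 mouse windows. The cAMP response element TGACGTCA occurs in 1.79% of the windows and in none of those of the members. The Igf1r window at chr7:67952007-67952306 is 76% G or C with 48 CpG dinucleotides, against medians of 52.7% and 7 over all windows. It holds GGGCGG, the core of a GC box bound by Sp factors, 2 times on the printed strand or its complement (capitals), and 35.7% of all windows hold it at least 1 time. A match describes the letters and is no evidence of binding.
Bdnf: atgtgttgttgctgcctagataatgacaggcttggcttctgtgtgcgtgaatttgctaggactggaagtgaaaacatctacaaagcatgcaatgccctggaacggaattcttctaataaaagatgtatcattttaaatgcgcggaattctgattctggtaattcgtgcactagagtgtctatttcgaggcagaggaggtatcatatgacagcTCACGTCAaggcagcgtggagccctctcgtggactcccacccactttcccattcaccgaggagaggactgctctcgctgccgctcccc
Igf1r: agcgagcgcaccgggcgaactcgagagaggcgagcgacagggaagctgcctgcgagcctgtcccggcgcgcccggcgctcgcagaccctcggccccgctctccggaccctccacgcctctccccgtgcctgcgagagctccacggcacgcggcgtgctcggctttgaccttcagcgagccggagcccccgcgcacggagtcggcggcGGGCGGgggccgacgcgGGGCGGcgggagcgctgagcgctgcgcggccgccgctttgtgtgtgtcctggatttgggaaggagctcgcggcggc

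Most members were below the median listed gene, and the ligands Igf1 and Bdnf had the lowest mean levels in both tissues. In hippocampus, Igf1r averaged 8.20 ± 1.201 FPKM (SD, n = 6), Ntrk2 8.13 ± 1.77 FPKM and Ntrk3 7.14 ± 1.22 FPKM, close to the median listed gene at 7.58 FPKM. Ntf3 followed with 2.92 ± 1.37 FPKM, then Ngfr with 2.63 ± 1.16 FPKM, Igf1 with 1.72 ± 0.687 FPKM and Bdnf with 0.840 ± 0.316 FPKM. In this order, Ntrk3 and Ntf3 are the only neighbours whose ranges over the 6 libraries do not overlap. In cortex the order was Ntrk2 with 8.74 ± 1.80 FPKM (SD, n = 10), Igf1r with 5.80 ± 1.56 FPKM, Ntf3 with 4.33 ± 0.856 FPKM, Ntrk3 with 4.17 ± 1.33 FPKM, Ngfr with 3.69 ± 0.707 FPKM, Igf1 with 1.74 ± 0.272 FPKM and Bdnf with 0.686 ± 0.163 FPKM. Neighbours with separate ranges there were Ngfr above Igf1 and Igf1 above Bdnf. Bdnf was the lowest member in 15 libraries, with Ngfr and Ntf3 below it in hippocampal SH replicate 2. Its levels rest on few recovered reads, 27 to 181 per library, whereas Ntrk2 had 3130 to 6888 recovered reads. The level of Ntrk2 beside other genes depends on the length that the authors divided by. Its recovered reads per FPKM, taken relative to the median gene, correspond to 3.91 to 3.95 times its longest annotated transcript (8744 bases). For the other members the value was 0.931 to 1.52 times. Recovered reads are known only up to a common factor per gene and block, so an unusual length and such a factor cannot be told apart here. Comparisons of Ntrk2 FPKM between libraries depend on neither.

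**Figure D1:**
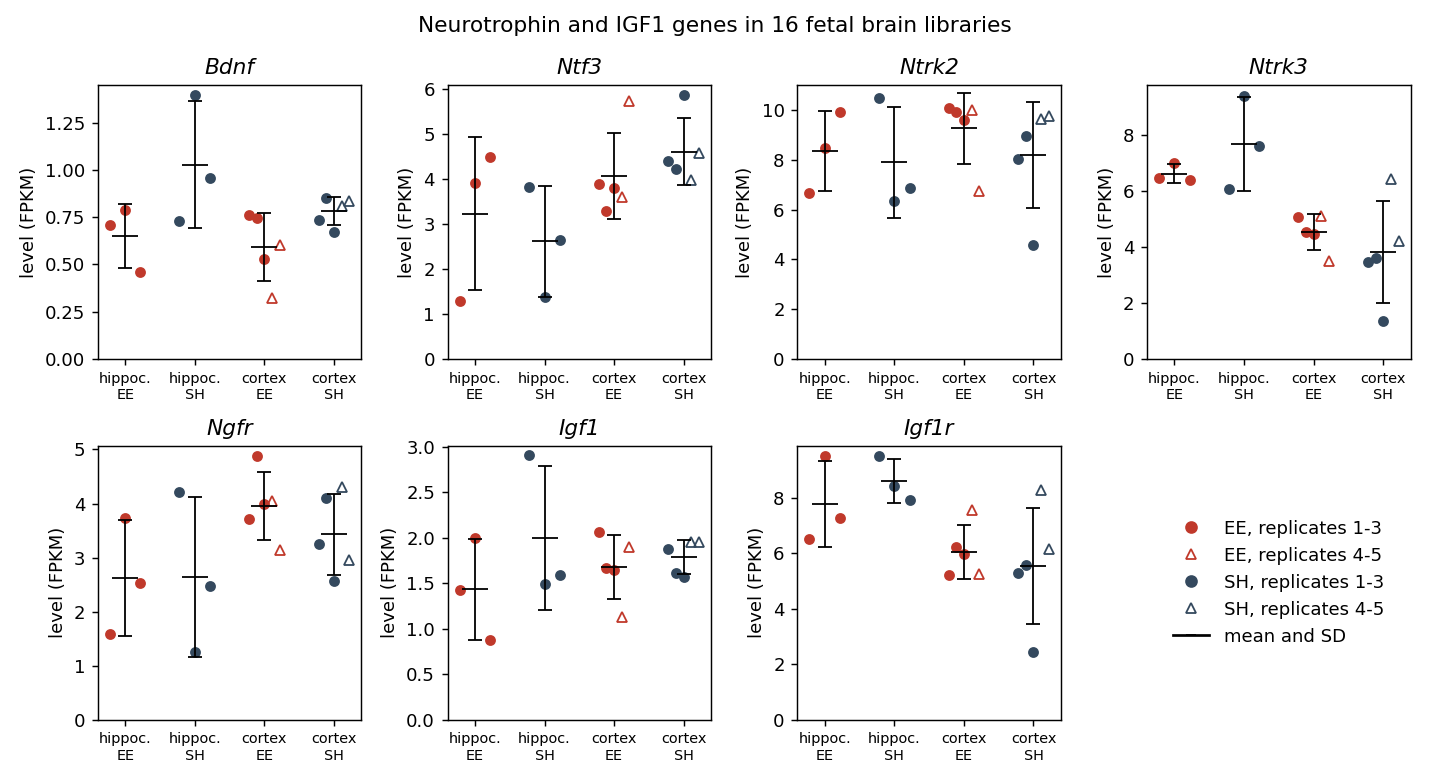
Levels in FPKM (vertical axis, linear, starting at 0) of the 7 genes in hippocampal EE and SH and cortical EE and SH libraries; points are libraries, triangles are cortex replicates 4 and 5, and bars are mean and SD. Ntrk3 and Igf1r sit higher in hippocampus than in cortex replicates 1 to 3, and no member separates EE from SH over all libraries of either tissue.

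Between tissues, the receptors Ntrk3 and Igf1r were higher in hippocampus, and the other members did not pass the test. The hippocampal libraries and cortex replicates 1 to 3 are also separate blocks, so tissue and block cannot be told apart in this test. In hippocampus, Ntrk3, the neurotrophin-3 receptor, had 6.45, 6.99 and 6.39 FPKM in EE replicates 1 to 3 and 6.05, 9.37 and 7.58 FPKM in SH replicates 1 to 3. In cortex replicates 1 to 3 it had 5.05, 4.54 and 4.46 FPKM in EE and 3.46, 3.61 and 1.36 FPKM in SH. All 6 hippocampal libraries lay above these 6 cortical ones, within EE and within SH too. The share of all genes with separate ranges in these libraries is not given here, for Ntrk3, for Igf1r or for the pathway genes below. Cortex SH replicate 4, outside this test, had 6.41 FPKM, above 2 hippocampal libraries. On log2(FPKM + 1), Ntrk3 was higher by 0.83 ± 0.19 (SE; limma, adjusted p = 0.00564, n = 6 and 6), and the ratio of mean FPKM was 1.91. In bulk tissue, more cells of an expressing type and more RNA per cell cannot be told apart.

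Igf1r, the receptor through which Igf1 acts, had 6.54, 9.54 and 7.28 FPKM in hippocampal EE replicates 1 to 3 and 9.50, 8.43 and 7.92 FPKM in hippocampal SH replicates 1 to 3. In cortex it had 5.21, 6.24 and 5.97 FPKM in EE and 5.28, 5.58 and 2.44 FPKM in SH. Again the 6 hippocampal libraries lay above these 6 cortical ones, but cortex replicate 4, outside this test, had 7.58 FPKM in EE and 8.29 FPKM in SH, inside the hippocampal range. The difference was 0.62 ± 0.17 on log2(FPKM + 1) (SE; limma, adjusted p = 0.0132), a ratio of means of 1.60. The test covered 6 members, as Bdnf has a mean below 1 FPKM, and 2 of the 6 were called, both higher. Over all 13158 genes tested, 35.4% were called, 3233 of them higher (24.6%) and 1428 lower (10.9%), so the members' share is near the background. With median-of-ratios scaling, which shifts the median gene to a difference of -0.011 where it is 0.092 without, the calls were 2289 higher and 2108 lower.

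Part of the size of both differences comes with 1 cortical library. Cortex SH replicate 3 holds the lowest Ntrk3 and the lowest Igf1r of all 16 libraries. Without it the difference was 0.64 for Ntrk3 (limma, adjusted p = 0.00107) and 0.45 for Igf1r (limma, adjusted p = 0.00299). With each library's trend on transcript length removed, the differences were 0.44 for Ntrk3 (limma, adjusted p = 0.00169) and 0.32 for Igf1r (limma, adjusted p = 0.00572). Within EE libraries alone the difference was 0.42 for Ntrk3 (limma, adjusted p = 0.0108) and 0.36 for Igf1r (limma, adjusted p = 0.0708). Within SH libraries alone it was 1.23 for Ntrk3 (limma, adjusted p = 0.0561) and 0.88 for Igf1r (limma, adjusted p = 0.0968), so only Ntrk3 within EE passed there.

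Ratios taken within a library, which do not depend on its scaling, show the same order. The ratio of Ntrk3 to Ntrk2 FPKM was 0.578 to 1.48 over the 6 hippocampal libraries (median 0.895) and 0.297 to 0.501 over cortex replicates 1 to 3 (median 0.444). The ratio of Igf1r to Ntrk2 was 0.734 to 1.33 in hippocampus (median 1.05) and 0.516 to 0.658 in cortex replicates 1 to 3 (median 0.622). Both ratios had separate ranges between these libraries. With cortex replicates 4 and 5 included, cortex reached 0.664 and 0.860, and the ranges overlap. How often ratios of other genes separate is not given here. The ratio of Ntf3 to its receptor Ntrk3 was 0.146 to 0.700 in hippocampus and 0.725 to 4.29 in cortex replicates 1 to 3, where the highest value is that of SH replicate 3 and the next is 1.27. Cortex SH replicate 4 had 0.619, inside the hippocampal range.

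**Figure D2:**
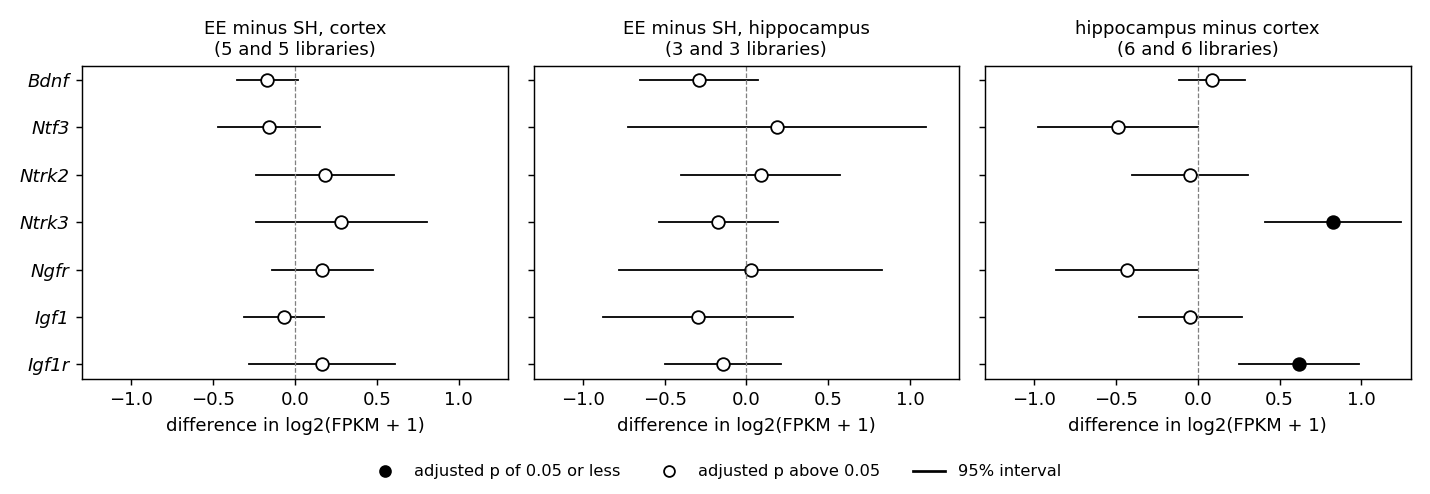
Differences in log2(FPKM + 1) with 95% intervals for EE minus SH in cortex, EE minus SH in hippocampus, and hippocampus minus cortex (horizontal axes); filled points have a limma adjusted p of 0.05 or less. The filled points are Ntrk3 (0.83) and Igf1r (0.62) between tissues.

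The remaining members were not called between tissues. Ntf3 averaged 2.92 ± 1.37 FPKM in hippocampus and 4.24 ± 0.879 FPKM in cortex replicates 1 to 3 (SD, n = 6 each), a difference of -0.49 ± 0.23 on log2(FPKM + 1) (SE; limma, adjusted p = 0.112). Ngfr averaged 2.63 ± 1.16 FPKM and 3.75 ± 0.792 FPKM in the same groups, a difference of -0.43 ± 0.20 (SE; limma, adjusted p = 0.110). Both were below the cortical mean in 5 of 6 hippocampal libraries, and their calls turn on the processing: Ntf3 passed with all 10 cortex libraries (-0.51, limma, adjusted p = 0.0373) and without hippocampal EE replicate 3 (-0.62, limma, adjusted p = 0.0443). Ngfr passed with median-of-ratios scaling (-0.52, limma, adjusted p = 0.0496), with the length trend removed (-0.53, limma, adjusted p = 0.0365) and without hippocampal SH replicate 1 (-0.58, limma, adjusted p = 0.0236). The intervals for Ntrk2 (-0.40 to 0.30) and Igf1 (-0.36 to 0.27) include 0, and a shift of that size in either direction cannot be told at this spread. Ntrk2 passed with the length trend removed, at -0.30 (limma, adjusted p = 0.0432). Bdnf differed by 0.086 (95% interval -0.11 to 0.29), with p = 0.40 in a two-sided exact permutation test whose smallest possible p is 0.005.

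Within hippocampus, Ntf3 and Ngfr varied more than any other member, with coefficients of variation of 46.8% and 43.9%. Ntf3 had 1.29, 3.91 and 4.47 FPKM in EE replicates 1 to 3 and 3.82, 1.37 and 2.64 FPKM in SH replicates 1 to 3. Ngfr had 1.59, 3.73 and 2.53 FPKM in EE and 4.21, 1.26 and 2.48 FPKM in SH. Both genes were lowest in EE replicate 1 and SH replicate 2, so the low libraries do not follow the housing. The same libraries had the lowest sums over 12 marker genes of meninges and fibroblasts, 64.6 and 44.0 FPKM, against 110 to 244 FPKM in the other 4 hippocampal libraries and 124 to 262 FPKM in cortex. All 12 markers were listed and none was at 0 in any library; between tissues, 5 of the 12 were called, all lower in hippocampus, with a median difference of -0.78. Sums over 11 microglial markers were also lowest in hippocampal EE replicate 1 (170 FPKM) and SH replicate 2 (86.6 FPKM). The other hippocampal libraries had 177 to 255 FPKM. Sums over endothelial and over mural (vessel wall) markers were lowest in hippocampal SH replicate 2 and EE replicate 3. The part of meningeal tissue or of microglia in the values of Ntf3 and Ngfr was not tested. Choroid plexus markers (4 of 10 listed in all libraries) summed to 37.0 to 16840 FPKM in hippocampus and 11.2 to 699 FPKM in cortex, and their part was not tested.

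**Figure D3:**
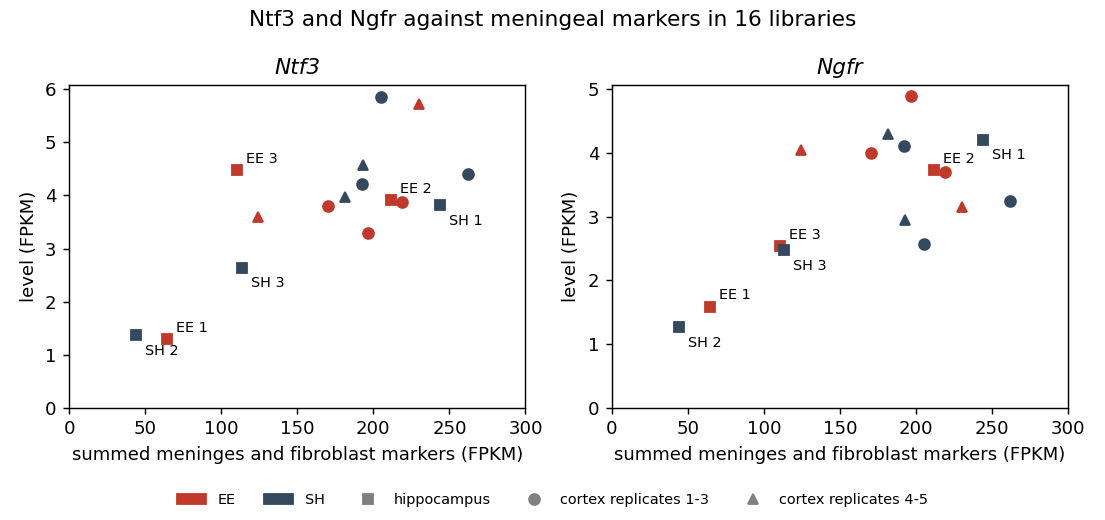
Levels of Ntf3 and Ngfr (vertical axes, FPKM) against the sum over 12 meningeal and fibroblast markers (horizontal axis, FPKM) in 16 libraries; squares are hippocampus and carry their group and replicate. Hippocampal EE replicate 1 and SH replicate 2 sit at the lower left for both genes.

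Markers of other cell types also differed between the tissues beside Ntrk3 and Igf1r. The sum over 12 interneuron markers was 207 to 343 FPKM in hippocampus and 528 to 1196 FPKM in cortex, ranges that do not overlap, and 11 of the 12 were called lower. Cajal-Retzius markers (7 of 8 listed) summed to 73.3 to 151 FPKM in hippocampus and 28.1 to 63.0 FPKM in cortex. Radial glia markers (11 of 12 symbols listed, where Slc1a3 and Glast name 1 gene) summed to 1357 to 2081 FPKM and 993 to 1812 FPKM. Of the Cajal-Retzius markers 7 of 8 tested were called higher, and of the radial glia markers 9 of 11. Sums over 10 excitatory neuron markers overlapped, with 321 to 490 FPKM in hippocampus and 351 to 510 FPKM in cortex, while 6 of the 10 were called lower and 1 higher. No marker was listed at 0. Whether these shares of cells bear on the receptors was not tested.

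The design sets EE against SH within each tissue. No member was called in either tissue. In cortex, 0 of the 6 members tested passed, against 1 of 12539 genes (0.00798%; 934 had an unadjusted p under 0.05). In hippocampus, 0 of 6 passed, against 0 of 13344 genes (0%) by limma on log2(FPKM + 1) and 0 by limma-voom on the recovered reads, with 503 at an unadjusted p under 0.05.

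Bdnf, the ligand of TrkB, had lower mean levels in EE in both tissues without passing a test. In cortex it had 0.764, 0.746, 0.529, 0.322 and 0.601 FPKM in EE replicates 1 to 5 and 0.735, 0.850, 0.674, 0.809 and 0.834 FPKM in SH replicates 1 to 5. All 5 EE libraries lay below the SH mean, but the ranges overlap. The difference was -0.17 ± 0.08 on log2(FPKM + 1) (SE; limma without the filter on low means, adjusted p = 0.693; 95% interval -0.35 to 0.02), and an exact permutation test within the sets of replicates gave p = 0.10 (two-sided, smallest possible 0.0167). Within replicates 1 to 3 it was -0.064, with overlapping ranges (limma, adjusted p = 0.736). Within replicates 4 and 5 it was -0.32 (limma, adjusted p = 0.346), with separate ranges between 2 EE and 2 SH libraries. The share of all genes with separate ranges in so few libraries is not given here. Without EE replicate 4 the cortical difference was -0.10.

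In hippocampus, Bdnf had 0.708, 0.786 and 0.461 FPKM in EE and 0.732, 1.40 and 0.958 FPKM in SH. The 3 EE libraries lay below the SH mean, while EE replicate 2 lay above SH replicate 1. The difference was -0.29 ± 0.15 (SE; limma, adjusted p = 0.9997; 95% interval -0.65 to 0.07), and the two-sided exact permutation p was 0.20, where 3 against 3 cannot go below 0.10. Without SH replicate 2 the difference was -0.16. The ratio of Bdnf to Ntrk2 FPKM in the same library was 0.0465 to 0.106 in hippocampal EE and 0.0698 to 0.220 in hippocampal SH, and 0.0322 to 0.0892 in cortical EE and 0.0839 to 0.147 in cortical SH, so it overlapped in both tissues.

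Ntf3 averaged 4.06 ± 0.959 FPKM in cortical EE and 4.60 ± 0.735 FPKM in cortical SH (SD, n = 5 each). The difference was -0.16 (95% interval -0.47 to 0.15), and -0.069 without SH replicate 3. In cortex replicates 1 to 3 its 3 EE libraries (3.89, 3.29 and 3.79 FPKM) lay below the 3 SH libraries (4.40, 4.22 and 5.85 FPKM), and in replicates 4 and 5 the ranges overlapped. How often other genes separate in 3 against 3 libraries is not given here. In hippocampus the difference was 0.19 with a wide interval, -0.72 to 1.099. Igf1, which binds Igf1r, averaged 1.68 ± 0.351 FPKM in cortical EE and 1.79 ± 0.187 FPKM in cortical SH, and 1.43 ± 0.557 FPKM in hippocampal EE and 1.997 ± 0.795 FPKM in hippocampal SH. Its differences were -0.066 in cortex (95% interval -0.31 to 0.18) and -0.29 in hippocampus (-0.87 to 0.29). Microglia are a source of Igf1 in the brain after birth, and 11 microglial markers summed to 170 to 214 FPKM in hippocampal EE and 86.6 to 255 FPKM in hippocampal SH, and to 144 to 196 FPKM in cortical EE and 117 to 317 FPKM in cortical SH; their part in the Igf1 values was not tested.

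Among the receptors, the cortical differences over all 10 libraries shrank without cortex SH replicate 3, and their sign differed between the sets of replicates. Ntrk2 had 10.1, 9.91, 9.62, 10.01 and 6.73 FPKM in cortical EE replicates 1 to 5 and 8.03, 8.96, 4.60, 9.64 and 9.76 FPKM in cortical SH replicates 1 to 5. Ntrk3 had 5.05, 4.54, 4.46, 5.08 and 3.49 FPKM in cortical EE and 3.46, 3.61, 1.36, 6.41 and 4.22 FPKM in cortical SH. Igf1r had 5.21, 6.24, 5.97, 7.58 and 5.25 FPKM in cortical EE and 5.28, 5.58, 2.44, 8.29 and 6.18 FPKM in cortical SH. In each of these genes SH replicate 3 was the lowest of the 10 cortex libraries, and the EE and SH ranges over all 10 overlapped. In replicates 1 to 3 the 3 EE libraries lay above the 3 SH libraries for Ntrk2 and Ntrk3, also with SH replicate 3 left aside. For Igf1r the ranges overlapped there, and in replicates 4 and 5 they overlapped for all 3 genes. The share of all genes that separate this way is not given here.

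With all libraries the differences were 0.18 for Ntrk2, 0.28 for Ntrk3 and 0.17 for Igf1r (limma, adjusted p between 0.807 and 0.857), and without SH replicate 3 they were 0.010 for Ntrk2, 0.063 for Ntrk3 and -0.028 for Igf1r. In replicates 1 to 3 the difference was 0.45 for Ntrk2, 0.64 for Ntrk3 and 0.38 for Igf1r, whereas in replicates 4 and 5 it was -0.21 for Ntrk2, -0.25 for Ntrk3 and -0.16 for Igf1r (limma, no member called). Ngfr differed by 0.17 in cortex (95% interval -0.14 to 0.48), by 0.082 without SH replicate 3, by 0.28 in replicates 1 to 3 and by -0.0012 in replicates 4 and 5.

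In hippocampus the receptor differences were 0.087 for Ntrk2 (95% interval -0.40 to 0.57), -0.17 for Ntrk3 (-0.54 to 0.19), 0.026 for Ngfr (-0.78 to 0.83) and -0.14 for Igf1r (-0.50 to 0.21). For Ntrk3 all 3 EE libraries lay below the SH mean, but the EE range lies inside the SH range. The test of whether the EE difference itself differs between hippocampus and cortex called 0 of 6 members and 0 of 13158 genes (limma; 990 at an unadjusted p under 0.05, and 0 called by limma-voom). The lowest unadjusted p among the members was that of Ntrk3, 0.0282, with a difference of -0.81 ± 0.32 (SE; limma, adjusted p = 0.495). It was -0.49 without cortex SH replicate 3 and -0.12 with the length trend removed.

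**Figure D4:**
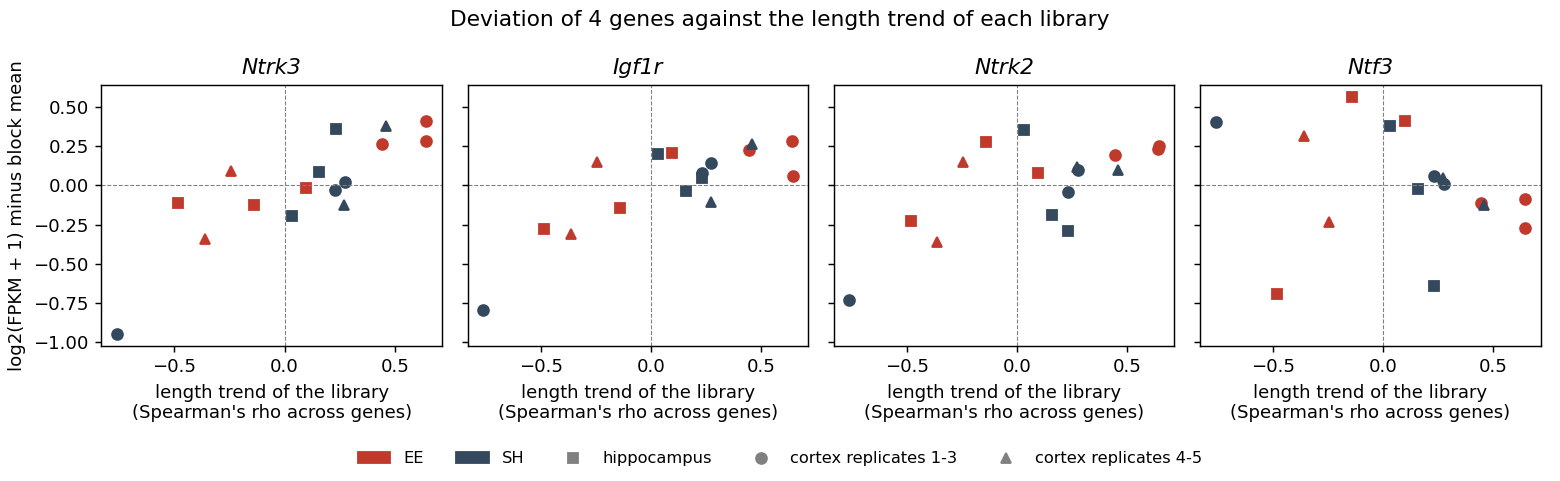
Deviation of Ntrk3, Igf1r, Ntrk2 and Ntf3 from their block mean on log2(FPKM + 1) (vertical axis) against Spearman's rho between transcript length and the deviation of all genes in the same library (horizontal axis), for 16 libraries. Cortex SH replicate 3, with a rho of -0.76, holds the lowest point for Ntrk3, Igf1r and Ntrk2.

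The 3 receptors Ntrk3 (longest transcript 19703 bases), Igf1r (11409 bases) and Ntrk2 (8744 bases) are long, and their levels followed the length trend of a library in some cases and not in others. SH replicate 3, with the lowest rho of replicates 1 to 3, was lowest there for all 3 receptors, and EE replicate 5, with the lowest rho of replicates 4 and 5, was lowest there for all 3. SH replicate 4, with the highest rho of replicates 4 and 5, was highest there for Ntrk3 and Igf1r but not for Ntrk2. Against this order, cortex EE replicate 1 has the highest rho of all libraries, but its Igf1r (5.21 FPKM) was the lowest of replicates 1 to 3 after SH replicate 3. Hippocampus was mixed. SH replicate 2, with the highest rho of that block, had the highest Ntrk3 but the lowest Ntrk2. EE replicate 1, with the lowest rho of that block, had the lowest Igf1r but not the lowest Ntrk2 or Ntrk3. Cortex EE replicates 1 to 3 had a rho of 0.64, 0.64 and 0.44, cortex SH replicates 1 to 3 of 0.23, 0.28 and -0.76, cortex EE replicates 4 and 5 of -0.24 and -0.36, and cortex SH replicates 4 and 5 of 0.46 and 0.27. So rho was higher in EE than in SH in replicates 1 to 3 and lower in EE than in SH in replicates 4 and 5, and the mean levels of these 3 receptors were too. What sets the trend in a library was not tested.

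Across the 16 libraries, as deviations from block means, Ntrk3 and Igf1r varied together (Pearson's r of 0.83), as did Ntrk2 and Igf1r (0.79) and Ntrk2 and Ngfr (0.71), while Ntf3 and Ntrk3 went opposite ways (-0.56). Each ligand and its main receptor had lower values, 0.25 for Igf1 with Igf1r and -0.28 for Bdnf with Ntrk2. These are descriptions over 16 libraries that share depth and length trends. Among 12074 genes, the pattern of Ntrk3 was most like that of Srrm4, a neuronal splicing factor (r of 0.98), and Bsn, a presynaptic scaffold (0.97), and Igf1r was most like Rere (0.97) and Arhgef11 (0.96). Ntrk2 was most like Atrnl1 (0.94) and Cobl (0.92), Ngfr like C77080 and Ptk7 (both 0.90), and Ntf3 like Fxyd5 (0.94) and Sidt1 (0.93). Bdnf was most like Pigw and Nxpe3 (both 0.93), and Igf1 like Zak (0.93) and Cflar (0.92).

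Other genes of the pathways were taken from lists of 93 genes, chosen with earlier results of these data known. Between tissues, 81 of the 93 were tested and 30 were called, 19 higher and 11 lower in hippocampus, a share near the 35.4% of all genes tested. Within EE libraries 21 of these 30 calls were kept, and within SH libraries 6. With median-of-ratios scaling 31 were called, 14 higher and 17 lower, so the balance of directions depends on the scaling. None of the 30 calls changed sign under any of the 21 alternatives. The median difference by list ran between -0.083 and 0.48, against 0.092 over all genes tested.

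Of the other neurotrophin receptors and coreceptors, 8 of 9 were tested and 2 were called, both lower. Sorcs3, a sortilin-family receptor, had 1.73 ± 0.280 FPKM in hippocampus and 3.69 ± 1.19 FPKM in cortex (SD, n = 6 each; difference -0.74, limma, adjusted p = 0.00482). Nradd, a homologue of Ngfr, had 5.91 ± 1.49 FPKM in hippocampus and 9.004 ± 1.66 FPKM in cortex (difference -0.54, limma, adjusted p = 0.0171), and missed the threshold within EE and within SH. Of the adaptors, 4 of 9 tested were called. Bex1 (-0.80) and Frs3 (-0.66), which couples Trk receptors to the kinase cascade, and Sh2b2 were lower, and Traf6 was higher (0.50). Traf6 missed the threshold in 7 of 21 alternatives, with adjusted p between 0.0514 and 0.167 there (limma): median-of-ratios scaling, the replicate block, EE alone, SH alone, and leaving out cortex EE replicate 2 or hippocampal SH replicate 1 or 3.

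Of the 7 processing genes tested, 3 were called, all higher in hippocampus: Furin, Pcsk5 and Pcsk6, members of the proprotein convertase family, some of which cut neurotrophin precursors. Another convertase, Pcsk2, differed by -0.26 and was not called (limma, adjusted p = 0.0681); it was named after its value was seen. Furin had 12.5 ± 1.99 FPKM in hippocampus and 7.62 ± 1.24 FPKM in cortex (SD, n = 6 each), a difference of 0.65 (limma, adjusted p = 0.00181). Its hippocampal range of 10.7 to 15.2 FPKM lay above cortex replicates 1 to 3 but not above all cortex SH libraries, which reached 11.7 FPKM. Pcsk5 differed by 0.84 and Pcsk6 by 1.17. Their ranges were 1.89 to 4.06 FPKM in hippocampus and 0.883 to 1.34 FPKM in cortex for Pcsk5, with no overlap, and 3.31 to 13.1 FPKM in hippocampus and 1.77 to 3.37 FPKM in cortex for Pcsk6, which overlap.

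On the IGF side, 1 of 3 other ligands and receptors was called. Igf2r, which binds and clears IGF2, had 7.41 ± 1.72 FPKM in hippocampus and 4.55 ± 1.27 FPKM in cortex (difference 0.61, limma, adjusted p = 0.0214). It missed the threshold without hippocampal EE replicate 2 (limma, adjusted p = 0.0516), within EE (0.0762) and within SH (0.127). Of the binding proteins and stanniocalcins, 4 of 9 were called. Igfbpl1 was higher, with 193 ± 26.8 FPKM in hippocampus and 87.2 ± 12.9 FPKM in cortex (difference 1.14, limma, adjusted p = 1.97e-05), as was Igfbp5. Igfbp6 (-1.45) and Stc1 (-0.43) were lower. Igfbp6 missed the threshold within EE (limma, adjusted p = 0.0555) and within SH (0.0623), and Stc1 missed it within SH (0.204). Igfbp6 had 0.643 to 6.93 FPKM in hippocampus and 5.71 to 20.4 FPKM in cortex.

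A further 6 of 8 genes for substrates, IGF2 mRNA-binding proteins and the insulin-degrading enzyme were called, 5 higher and 1 lower. Irs1, the adaptor that docks on activated Igf1r, had 9.46 ± 2.10 FPKM in hippocampus and 4.44 ± 1.05 FPKM in cortex (difference 0.94, limma, adjusted p = 0.000949), and the ranges did not overlap. Irs2, Igf2bp1 (0.68), Igf2bp3 and Ide (0.39) were also higher and Igf2bp2 was lower; Ide missed the threshold in 8 of 21 alternatives, among them median-of-ratios scaling (0.28), EE alone, SH alone and leaving out cortex EE replicate 3, hippocampal EE replicate 2 or hippocampal SH replicate 1 or 3. In the shared kinase cascade 10 of 36 were called, 7 higher and 3 lower. The 3 with the smallest p were Akt2, with 19.4 ± 1.40 FPKM in hippocampus and 11.6 ± 1.19 FPKM in cortex (difference 0.70), the docking protein Gab1 (0.91) and the kinase Map2k1 (-0.41).

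**Figure D5:**
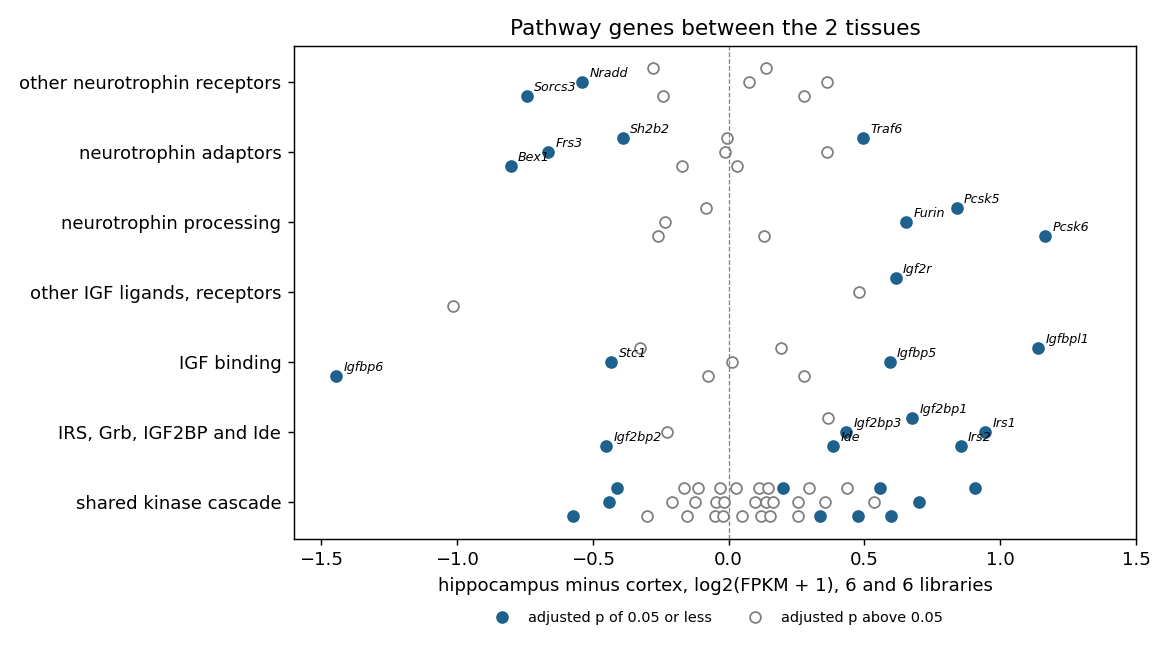
Differences between hippocampus and cortex on log2(FPKM + 1) (horizontal axis) for tested genes of 7 pathway lists (rows); each point is 1 gene, filled where the limma adjusted p is 0.05 or less, and filled points outside the kinase cascade are named. Filled points lie on both sides of 0, 19 to the right and 11 to the left.

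Between EE and SH, 0 of 80 pathway genes tested in cortex and 0 of 80 in hippocampus were called by limma, with 2 and 4 at an unadjusted p under 0.05. The median difference was 0.038 in cortex and -0.038 in hippocampus, against -0.017 and -0.010 over all genes. The smallest p in hippocampus was that of Stc2, an inhibitor of the protease that frees IGF from its binding proteins, with 1.34 ± 0.422 FPKM in hippocampal EE libraries and 2.47 ± 0.442 FPKM in hippocampal SH libraries (SD over 3 and 3; difference -0.57, limma, adjusted p = 0.9996).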

How the data were processed

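Each library came as 1 table of gene symbols and FPKM deposited by the authors. Per the labels' protocols, Trizol was used for RNA and a NEBNext Ultra kit for the libraries. The submitters' processing notes name the build mm10 and the tools HISAT2 2.0.4, StringTie 1.3.4d, cutadapt 1.9, DESeq2 and edgeR; the annotation, the role of each tool and the filter on listed genes are not given in the sources used here.

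A gene entered a test if every library of that comparison listed it and its mean FPKM was 1 or more. Tests were run on log2(FPKM + 1), two-sided, with limma 3.58.1 (trend) in R 4.3.3, with p-values adjusted by Benjamini-Hochberg over all genes and a threshold of 0.05. The cortex fit had a term for the replicate set; the tissue fit used replicates 1 to 3 and a treatment term. Bdnf fails the filter, so its values come from the fit without it. Whole reads were recovered from the FPKM steps for 99.96 to 99.97% of genes per library (tolerance 0.003 reads), up to a common factor per gene and block, which differed between tissues by over 10% for 492 of 14986 genes but for none of the members. Both steps were tested on simulated data. Alternatives were a pseudocount of 0.1, no filter, median-of-ratios scaling, subtraction of a lowess trend on transcript length per library, limma-voom on the recovered reads, a block for the replicate number, single sets or treatments, and leaving out each library; limma-voom without cortex SH replicate 3 was added after seeing the data. FPKM totals are relative, so depth per library was judged from the recovered reads only. Their genes hold 90.6 to 94.2% of the summed FPKM, and the unknown factors per gene and block make these totals approximate. A symbol listed 2 times per table was left out. Named genes were the members, up to 3 called genes per pathway list by smallest p, or the 1 with the smallest p, and the 2 genes most like each member; Sh2b2, Igfbp5, Irs2, Igf2bp2 and Igf2bp3, and the genes that checked the tissues, were named after their values were seen. A few genes that this rule or the tissue check covers are not reported here, though the list counts include them. Members and lists were chosen with earlier results of these data known. Drawings used matplotlib 3.10.9.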

Additional observations from a re-analysis of the deposited data

Results flagged for a closer look

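Within the 5 cortical EE libraries, replicate 5 stood far from the others in 2 members. It had the highest Ntf3, 5.72 FPKM against 3.29 to 3.89 FPKM in the other 4, and the lowest Ntrk2, 6.73 FPKM against 9.62 to 10.1 FPKM. Such a gap is expected by chance in about 1 of 20 groups, and 14 groups of 5 were examined. That library had a length trend with a rho of -0.36, and the part of the trend was not tested.

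The direction of Ntrk3 between EE and SH differed between blocks. In cortex replicates 1 to 3 all EE libraries lay above the SH mean, with a ratio of means of 1.66, while all EE libraries lay below it in hippocampus (ratio 0.862) and in cortex replicates 4 and 5 (ratio 0.807). The difference between hippocampus and cortex replicates 1 to 3 was -0.81 ± 0.32 on log2(FPKM + 1) (SE; limma, adjusted p = 0.495), and that between cortex replicates 4 and 5 and replicates 1 to 3 was -0.89 ± 0.41 (SE; limma, adjusted p = 0.259). Neither passed the threshold. Without cortex SH replicate 3 they were -0.49 and -0.57, and with the length trend removed -0.12 and 0.026.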

How the results depend on the processing

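No member was called between EE and SH under any alternative. The count of cortex genes called, 1 in all, was 6 with the length trend removed, 0 in replicates 1 to 3 alone, 435 in replicates 4 and 5 alone, 0 without the term for the set and 4 with limma-voom without cortex SH replicate 3; leaving out a library gave 1 to 3, the highest without cortex SH replicate 3. Between tissues, 518 genes were called within SH against 4661 in all, and 4 members with the length trend removed, 1 within EE and 0 within SH, against 2; within EE, with as many libraries as within SH, 4807 genes were called, and the cause was not tested. Between cortex sets, leaving out a library gave 0 to 3 genes, the highest without cortex SH replicate 3 and 1 without cortex EE replicate 5. Libraries of the same replicate number had correlations of -0.56 to 0.44 between their deviations from group means. No correlations between different numbers were taken beside them, so whether the numbers pair libraries cannot be told. With a replicate block 1 gene was called in cortex, 0 in hippocampus and 4357 between tissues, with no call of a member changed.

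Members not called changed sign as follows, and the cause was not tested. In cortex, replicates 4 and 5 alone gave 0.079 for Ntf3, -0.21 for Ntrk2, -0.25 for Ntrk3, -0.0012 for Ngfr and -0.16 for Igf1r; replicates 1 to 3 alone gave 0.055 for Igf1, and limma-voom without cortex SH replicate 3 gave -0.031 for Igf1r. Leaving out a library gave -0.12 to 0.029 for Igf1 and -0.028 to 0.29 for Igf1r. In hippocampus, Igf1r was 0.0012 with the length trend removed, and leaving out a library gave -0.085 to 0.58 for Ntf3, -0.038 to 0.28 for Ntrk2 and -0.28 to 0.32 for Ngfr. Between tissues, Bdnf was -0.032 with the length trend removed and -0.026 within EE, and Ntrk2 and Igf1 were both 0.13 within SH; leaving out a library gave -0.18 to 0.031 for Ntrk2 and -0.16 to 0.050 for Igf1. For the EE difference between tissues, removing the length trend gave 0.095 for Ntrk2, 0.032 for Igf1 and 0.014 for Igf1r, and leaving out a library gave -0.56 to 0.044 for Ngfr. For that between cortex sets, removing the length trend gave -0.13 for Ntf3, 0.026 for Ntrk3, 0.21 for Igf1 and 0.19 for Igf1r.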
